A study of Triticum turgidum subsp. durum with 8 samples.

Results

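Of the 1473 distinct small RNA sequences in the durum wheat miRNA table, 85 are predicted miRNAs of 23 to 25 nt that carry PC- names (group 5, the class without a miRBase match). They were chosen by name, group and length alone, and each sequence was counted once. They belong to a class of 190 sequences, and 74 of them are 24 nt long, 10 are 23 nt long and 1 is 25 nt long. The remaining 105 group 5 sequences have 18 to 22 nt.

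The libraries came from shoots of 3-week-old durum wheat seedlings, the tetraploid wheat used for pasta. DBA Aurora, a variety tolerant to water deficit and heat, and L6, a breeding line sensitive to it, were grown from seeds whose parents had been kept under control conditions (CG) or under water deficit with heat (WH). The progeny received complete nutrients (C) or the same solution lacking nitrogen (N). The 8 groups are named by genotype and parents, then by nutrient supply, so that AuWH_N holds N-starved Aurora seedlings of stressed parents. Each group was 1 library made from the pooled RNA of 6 plants, so that no group has a replicate and each factor was compared over 4 libraries against 4.

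In plants, miRNAs are cut by DCL1 from single-stranded transcripts that fold back into a hairpin, and the strand loaded into AGO1 directs cleavage or translational repression of complementary mRNAs. Longer small RNAs are mostly siRNAs made by DCL3 from double-stranded RNA. In Arabidopsis these are loaded into AGO4, which favours a 5′ A, and guide DNA methylation at transposons and repeats. Some hairpins are cut by DCL3 as well, and their products are known as long miRNAs. Whether a sequence in the table was made by one enzyme or the other was not measured.

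The 5 members with the highest means are shown first, because they carry much of the signal of the class, together with PC-3p-22187_188, the opposite arm of PC-5p-22244_187. The bases in capitals are the seed, bases 2 to 8 from the 5′ end, marked here only to compare the sequences. The sequences are written as DNA, as deposited.
PC-5p-2418_1401: aCTTAGTCttggcactataaattt
PC-3p-4305_800: aTATTACAgacagcaaagtgaact
PC-5p-22244_187: tCTCATTTtcaccactaaccagc
PC-3p-22187_188: cTGCTGGTtagggtgaaaatgaga
PC-5p-8726_421: tCAGGACGttgcaacattaacacc
PC-5p-11536_330: aTTACTTGtctcgaaaatggatgt

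A second set is shown for the response to nitrogen supply. The first 4 passed the test for it and were lower in the N library of all 4 matched pairs, and the last, which did not pass, had the lowest p among the members that were higher in all 4. PC-3p-52647_87 is also the sixth most abundant member.
PC-5p-63848_73: tGTTAGCTgtagctttctccctct
PC-3p-48284_95: aGGGAGAAagcgatgactaacaat
PC-5p-17007_236: gCGCTACCgccgctgcccggacag
PC-3p-52647_87: tATTGGGTatttctgtctttatt
PC-3p-51987_88: cTACAAGTattgtggcacagagaa

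All 11 of these seeds differ from one another. Over the 85 members, a single seed was shared, TCACAAA, by PC-5p-331710_8 on chromosome 6A and PC-5p-430383_6 on chromosome 7B.

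The members were rare RNAs. Their normalized counts (reads scaled between libraries by the authors) summed to between 583 in AuWH_C and 1024 in L6WH_C, which is 0.0454 to 0.0955% of all counts of distinct sequences in a library. The 105 shorter group 5 sequences took 0.513 to 0.890% and the 567 conserved sequences of 23 to 25 nt took 4.04 to 7.88%. Of the 85 members, 16 had a mean normalized count of 10 or more, and these held 83.6% of the summed level. The first 6 by mean held 58.2% of it.

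PC-5p-2418_1401 was the most abundant member, at a mean of 168 over the 8 libraries. Its normalized count was 181 in AuCG_C, 187 in AuCG_N, 101 in AuWH_C, 147 in AuWH_N, 128 in L6CG_C, 245 in L6CG_N, 164 in L6WH_C and 195 in L6WH_N. The N library was higher in all 4 matched pairs, but the 4 N values overlapped the 4 C values. PC-3p-4305_800 followed with 179, 89.4, 89.4, 146, 52.8, 104, 91.9 and 112 in the same order, and its extremes were both C libraries. PC-5p-22244_187 lay between 21.0 in AuWH_C and 90.4 in AuCG_C.

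PC-5p-8726_421 ranged from 34.5 in AuCG_N to 96.2 in L6WH_C, and PC-5p-11536_330 from 23.7 in AuWH_C to 50.3 in L6WH_C. The remaining members were far lower: the median member had a mean of 1.62, against 9.42 for the shorter group 5 sequences and 4.43 for conserved sequences of 23 to 25 nt.

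**Figure D1:**
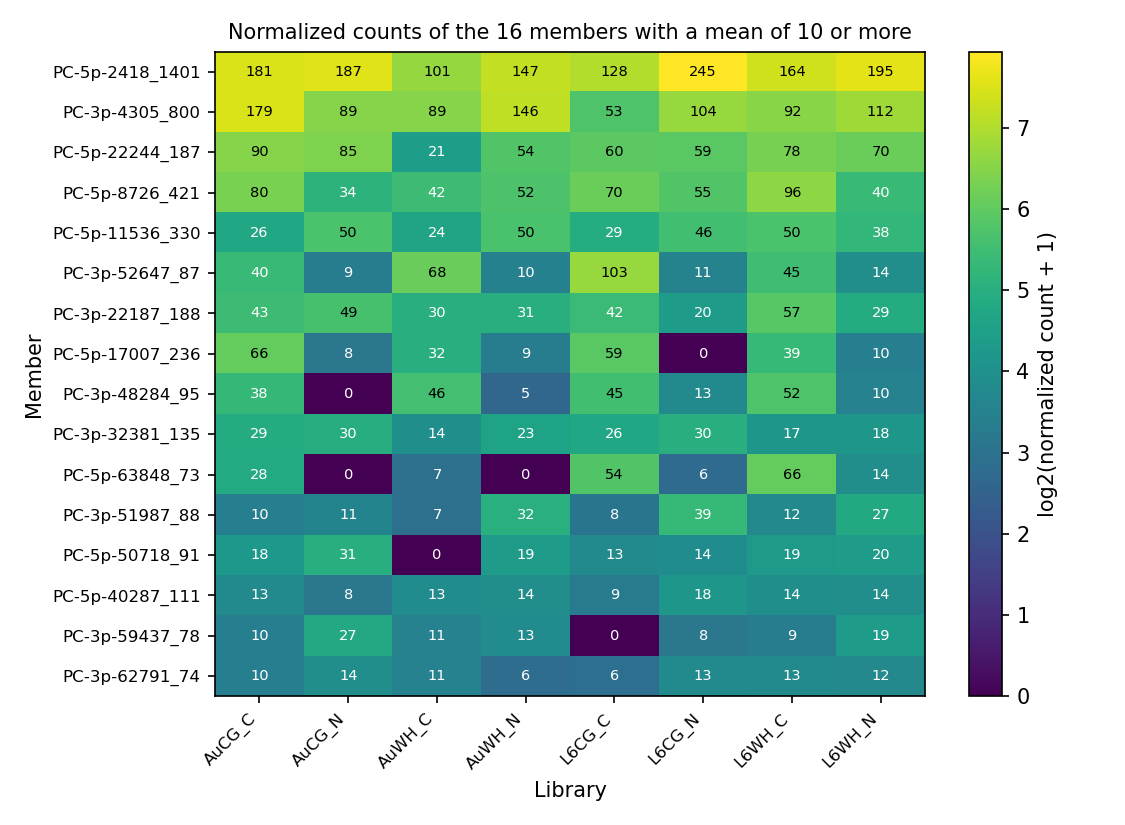
Normalized counts of the 16 members with a mean of 10 or more (rows, most abundant first) in the 8 libraries (columns), with the colour giving log2(normalized count + 1) and the rounded count printed in each cell. PC-5p-2418_1401 has the highest count in every library, and the 4 members PC-3p-52647_87, PC-5p-17007_236, PC-3p-48284_95 and PC-5p-63848_73 are darker in the N columns.

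The number of members listed differed widely between libraries. Values step in whole reads, and 1 read was worth between 0.649 normalized counts in L6WH_N and 1.57 in AuCG_N. All 279 member values above 0, of 680 in all, were whole reads within 0.02 of a read, and none was under 5 reads, so that a 0 is read here as fewer than 5 reads and not as absence. Of these 279 values, 116 were 5 to 7 reads and 63 were exactly 5. Summed over the 8 libraries, a member's reads equalled the last number in its name for 53 members and exceeded it for 32. Among the 4 that passed the nitrogen test, the sum was 304 for PC-3p-52647_87, 206 for PC-5p-63848_73 and 227 for PC-3p-48284_95. For PC-5p-17007_236, the other one, the sum and the last number were equal. Whether the larger sums hold reads of other sequences was not tested.

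L6WH_N listed 54 members and L6WH_C listed 48, and these were the libraries in which 1 read was worth least. The other 6 libraries listed 23 (AuWH_C) to 34 (AuCG_C and L6CG_N). At a normalized count of 8 or more, which is above 5 reads in every library, the libraries held 15 to 23 members each and L6WH_N held 21.

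**Figure D2:**
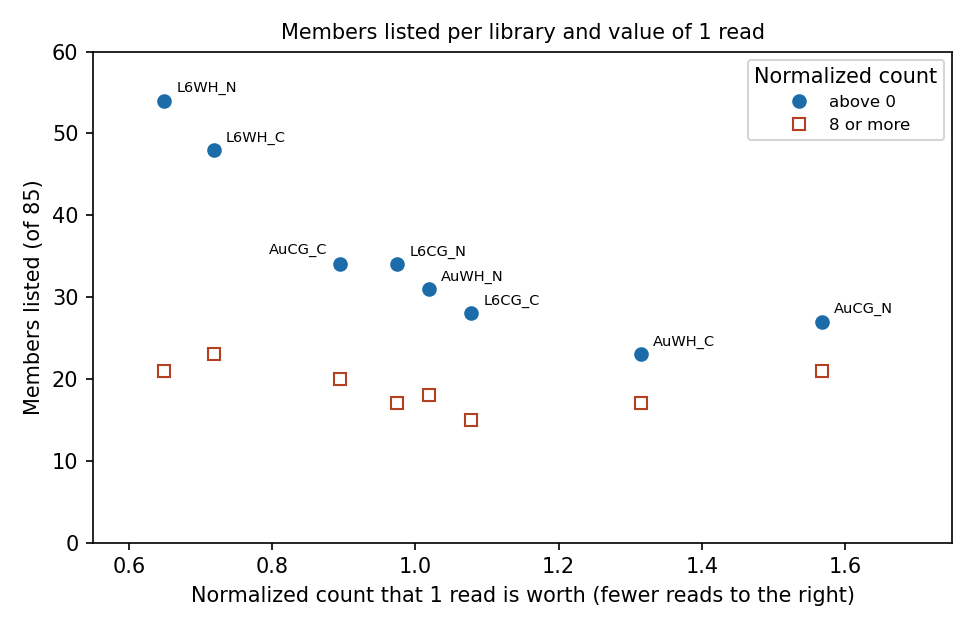
Members listed in each library (vertical axis, of 85) against the normalized count that 1 read was worth there (horizontal axis), 1 point per library. Filled points, values above 0, run from 54 in L6WH_N at 0.649 to 27 in AuCG_N at 1.57, and open squares, values of 8 or more, stay between 15 and 23.

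Only 11 members were listed in all 8 libraries, while 29 were listed in a single library and 15 each in 2 and in 3. The 29 had 5 to 8 reads in their library. Members listed only in L6 numbered 33 and only in Aurora 12, but at a normalized count of 8 or more in one genotype and 0 in the other, 3 were on each side. The part of depth in the first difference was not tested. The share of all sequences listed in 1 genotype alone was not counted. Conserved sequences of 23 to 25 nt were also listed most in L6WH_N (454) and L6WH_C (442), against 267 (AuWH_C) to 388 (AuCG_C) in the rest.

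The 3 members that reached 8 in L6 alone were PC-3p-233423_15, PC-3p-157394_26 and PC-5p-160577_26. PC-3p-233423_15 had 11.9 in L6CG_C, 8.78 in L6CG_N and 11.5 in L6WH_C, and was at 0 in L6WH_N and the 4 Aurora libraries. The 3 that reached 8 in Aurora alone, PC-3p-254524_13, PC-3p-337444_8 and PC-3p-422091_6, had their highest value in AuCG_N, at 12.5, 12.5 and 9.41. In that library 1 read was worth most. These names were chosen after their values were seen.

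The question for nitrogen was which members changed when the seedlings were starved of it. Of the 16 members tested, 4 fell and none rose, and the 4 came from 3 hairpins. They were PC-5p-63848_73 and PC-3p-48284_95, the 2 arms of a single hairpin on chromosome 4B, PC-5p-17007_236 on chromosome 2B and PC-3p-52647_87 on chromosome 3A. No target of these sequences was examined. Members were tested at a mean of 10 or more over all libraries, C and N together. The N means of PC-5p-63848_73, PC-5p-17007_236 and PC-3p-48284_95 were 5.03, 6.69 and 7.04, against C means of 38.6, 49.0 and 45.5. These 3 members thus reached the level for the test through their C libraries.

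PC-5p-63848_73 had normalized counts of 27.7 in AuCG_C, 6.57 in AuWH_C, 53.9 in L6CG_C and 66.1 in L6WH_C. In the matching N libraries it was at 0, 0, 5.85 and 14.3. Every pair fell, but the value in AuWH_C was 5 reads, the fewest listed, against fewer than 5 reads in AuWH_N. AuWH_C also lay below L6WH_N, so the groups overlapped. The mean was 38.6 ± 26.7 (SD, n = 4) with nutrients and 5.03 ± 6.76 without N, and the log2 difference of counts plus 1 was -3.23 (SE 0.61, limma adjusted p = 0.0094).

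The opposite arm, PC-3p-48284_95, had 38.5 in AuCG_C, 46.0 in AuWH_C, 45.3 in L6CG_C and 52.4 in L6WH_C, against 0, 5.09, 12.7 and 10.4 in the N libraries. All 4 C values lay above all 4 N values. The log2 difference was -3.06 (SE 0.64, limma adjusted p = 0.013). The 4 C libraries were close together, at 45.5 ± 5.70 (SD, n = 4).

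PC-5p-17007_236, whose GC content of 79.2% is the highest of the members, had 66.2 in AuCG_C, 31.6 in AuWH_C, 59.3 in L6CG_C and 38.8 in L6WH_C. Its N values were 7.84, 9.17, 0 and 9.74, again all below the C values. The log2 difference was -3.10 (SE 0.77, limma adjusted p = 0.023). Leaving out AuCG_C, AuWH_N, L6CG_C or L6WH_C ended this call, with adjusted p up to 0.090, and the difference then ran from -3.23 to -2.63.

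PC-3p-52647_87 had 40.3 in AuCG_C, 68.4 in AuWH_C, 103 in L6CG_C and 44.5 in L6WH_C, and 9.41, 10.2, 10.7 and 14.3 in the N libraries. The groups did not overlap. The mean fell from 64.2 ± 29.0 to 11.2 ± 2.16 (SD, n = 4), a log2 difference of -2.34 (SE 0.37, limma adjusted p = 0.0043).

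At an unadjusted p under 0.05 there were 5 members. The 4 calls are 25% of the 16 members tested. Over all 605 sequences tested, 25% were called in either direction, 15.4% as lower and 9.59% as higher, and 33.6% had an unadjusted p under 0.05. With 3 members whose 4 C values lay above all 4 N values, the share (18.8% of 16) was also close to the 16.4% of the 605 sequences. The members were therefore called about as often as the table as a whole. Fewer copies of an RNA per cell and fewer cells carrying it cannot be told apart in pooled shoots.

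The largest rises did not pass. PC-3p-51987_88 on chromosome 5A went from 9.84 to 11.0 in Aurora from control parents, from 6.57 to 31.6 in Aurora from stressed parents, from 7.54 to 39.0 in L6 from control parents and from 12.2 to 27.3 in L6 from stressed parents. It was higher in 4 of 4 pairs, with an overlap at AuCG_N, which lay below L6WH_C. The log2 difference was 1.39 (SE 0.44, limma adjusted p = 0.057), and it passed without AuCG_N (1.76, adjusted p = 0.029).

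PC-3p-59437_78 (1.45, SE 0.73, limma adjusted p = 0.22) and PC-5p-50718_91 (1.32, SE 0.91, limma adjusted p = 0.35) were also higher in 4 of 4 pairs. Each was at 0 in 1 of the C libraries, L6CG_C for the first and AuWH_C for the second, and without that library the differences were 0.68 and 0.20. The median log2 difference of the 16 members was 0.19, against -0.06 over all sequences tested.

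**Figure D3:**
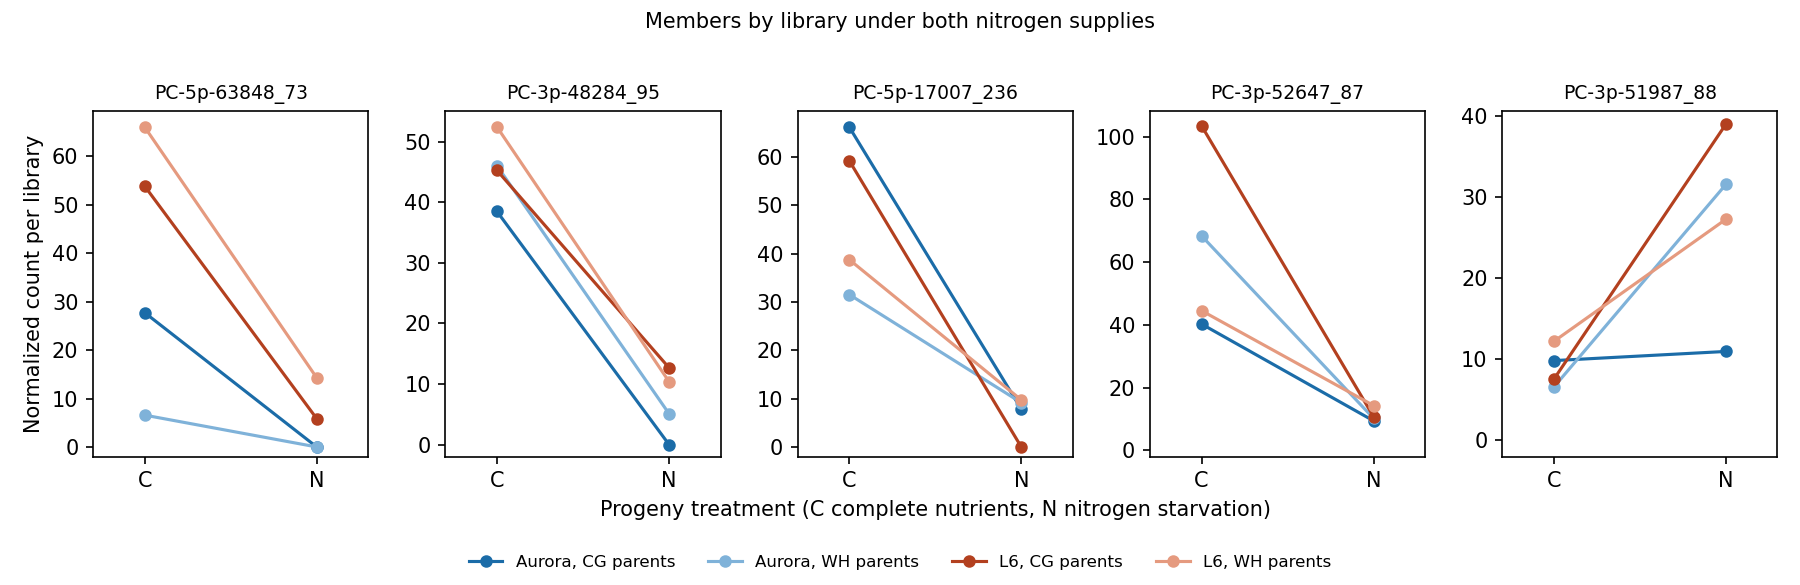
Normalized counts (vertical axes) of the 4 members that were called and of PC-3p-51987_88, in seedlings with complete nutrients (C) and without nitrogen (N), with 1 line for each genotype and parental treatment. The first 4 panels fall in all 4 lines, and PC-3p-51987_88 rises in all 4, from 9.84 to only 11.0 in Aurora from CG parents.

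**Figure D4:**
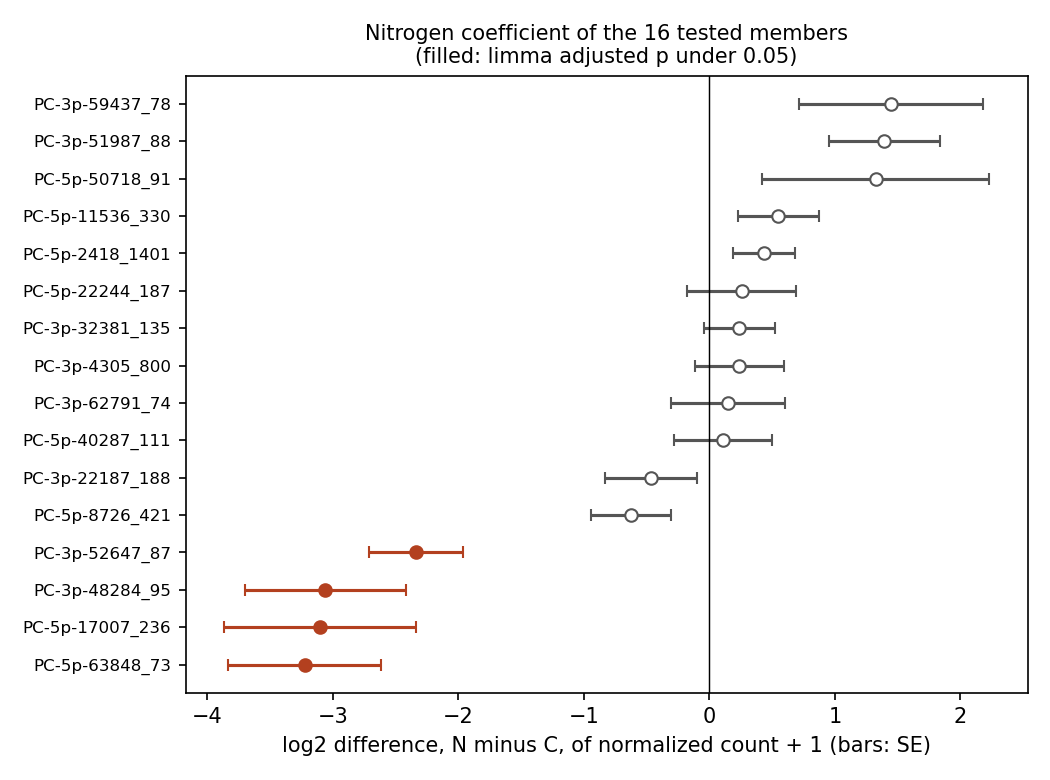
Log2 difference N minus C (horizontal axis, bars are the SE) for the 16 members tested, ordered by size. The 4 filled points, between -3.23 and -2.34, passed an adjusted p of 0.05, and the other 12 lie between -0.62 and 1.45.

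The 4B hairpin is printed because both of its arms fell together. It spans chr4B:674658907-674659120 on the plus strand of Svevo.v1, 3423 bp from the nearest annotated gene, and its 2 arms are in capitals.
hairpin of PC-5p-63848_73: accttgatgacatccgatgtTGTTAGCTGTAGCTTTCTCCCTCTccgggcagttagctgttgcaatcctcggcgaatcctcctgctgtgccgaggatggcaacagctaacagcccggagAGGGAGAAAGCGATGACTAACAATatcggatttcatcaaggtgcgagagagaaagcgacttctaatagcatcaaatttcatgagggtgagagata

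In the predicted fold, the arms pair with 3′ overhangs of 2 nt at both ends, the geometry that Dicer-like enzymes leave. Both arms have 24 nt, and their means were close, 21.8 for the 5p arm and 26.3 for the 3p arm. Both were listed in 6 of the 8 libraries. Of the 36 hairpins with members on both arms, 3 had this overhang at both ends, and the most abundant member, PC-5p-2418_1401, comes from another of them.

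PC-3p-52647_87 overlaps a conserved miRNA. Its hairpin, chr3A:316608452-316608524 on the minus strand, lies over entries of tae-miR9774, and its first 17 bases are the last 17 of tae-miR9774_L+1. The shared run is in capitals here.
PC-3p-52647_87: TATTGGGTATTTCTGTCtttatt
tae-miR9774_L+1: acaagaTATTGGGTATTTCTGTC

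tae-miR9774_L+1 had normalized counts of 5075 in AuCG_C, 3254 in AuWH_C, 4270 in L6CG_C and 8083 in L6WH_C, and 586, 849, 1053 and 781 in the N libraries. Its log2 difference was -2.61 (SE 0.28, limma adjusted p = 7.1e-04), beside -2.34 for the member. The 20-nt sequence PC-3p-22927_182 of group 5 shares 19 bases with the member and is placed in a hairpin on chromosome 4A. It had a log2 difference of -2.51 (SE 0.40, limma adjusted p = 0.0043). The member, at a mean of 37.7, thus stood at a small share of the counts of an overlapping RNA that moved the same way, and these sequences are not independent of each other.

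Parental stress gave no call among the members. limma called 0 of 16 members, with 0 at an unadjusted p under 0.05, and it called 0% of the 605 sequences, with 1.65% at an unadjusted p under 0.05. The groups did not overlap in 1 member, PC-3p-32381_135 on chromosome 7B, in which all 4 libraries from control parents lay above all 4 from stressed parents.

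PC-3p-32381_135 had normalized counts of 28.6 in AuCG_C, 29.8 in AuCG_N, 25.9 in L6CG_C and 30.2 in L6CG_N. The libraries from stressed parents had 14.5 in AuWH_C, 23.4 in AuWH_N, 17.2 in L6WH_C and 17.5 in L6WH_N. The log2 difference was -0.65 (SE 0.28, limma unadjusted p = 0.055, adjusted p = 1.0). No other of the 605 sequences (0.165% in all) had all CG values above all WH values, and 0.496% had the opposite.

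The other members named for their size did not pass either. PC-5p-50718_91 differed by -0.97 (SE 0.91) and PC-5p-22244_187 by -0.52 (SE 0.43), lower in the progeny of stressed parents. PC-3p-59437_78 differed by 0.93 (SE 0.73) and PC-3p-48284_95 by 0.70 (SE 0.64), higher in them. PC-5p-17007_236 had no clear direction: its log2 difference was 0.50 (SE 0.77), while its mean count was 22.3 after parental stress and 33.3 without. The adjusted p was 1.0 for each in limma. The direction of PC-5p-50718_91, PC-3p-48284_95 and PC-5p-17007_236 turned when 1 library was left out, and PC-5p-22244_187 was at -0.043 without AuWH_C and PC-3p-59437_78 at 0.17 without L6CG_C.

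Between the genotypes, limma called 0 of the 16 members, with 1 at an unadjusted p under 0.05, and 2.64% of the 605 sequences, with 13.9% at an unadjusted p under 0.05. The 1 member was PC-5p-63848_73, whose listed value was lower in Aurora in 4 of 4 pairs. In AuCG_N 5 reads were worth 7.84, so the 0 there can stand for a level above the 5.85 in L6CG_N. The direction of that pair is therefore not known. The Aurora values of PC-5p-63848_73 were 27.7, 0, 6.57 and 0, with a mean of 8.58 ± 13.1 (SD, n = 4). Its L6 values were 53.9, 5.85, 66.1 and 14.3, with a mean of 35.0 ± 29.4 (SD, n = 4). The 2 sets overlapped. The log2 difference, Aurora minus L6, was -2.70 (SE 0.61, limma adjusted p = 0.093), and it passed when AuCG_C was left out (-3.31, adjusted p = 0.031).

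The opposite arm of its hairpin, PC-3p-48284_95, was lower in Aurora in 4 of 4 pairs, by less (-1.27, SE 0.64, limma adjusted p = 0.42). PC-5p-50718_91 had no clear direction: its log2 difference was -0.69 (SE 0.91), its mean count was 17.2 in Aurora and 16.3 in L6, and without AuWH_C, where it was at 0, the difference was 0.43. PC-3p-59437_78 (1.18, SE 0.73), PC-5p-17007_236 (0.73, SE 0.77) and PC-3p-4305_800 (0.47, SE 0.36) had differences above 0, with limma adjusted p of 0.48, 0.69 and 0.58. These also rested on single libraries: the first was 0.42 without L6CG_C, the second -0.20 without L6CG_N and the third 0.084 without AuCG_C. In none of the 16 did the 2 genotypes separate over all libraries, against 1.49% of the 605 sequences with all Aurora values higher and 3.64% with all L6 values higher.

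None of the 3 interactions was called in limma, neither in the 16 members nor in the 605 sequences (0%). At an unadjusted p under 0.05 there were 0 members for parental treatment by N (1.65% of the 605), 0 for genotype by N (5.62%) and 1 for genotype by parental treatment (3.14%). The last was PC-5p-22244_187, which fell from 90.4 to 21.0 between AuCG_C and AuWH_C and from 84.6 to 54.0 between AuCG_N and AuWH_N, while L6 went from 60.3 to 78.3 and from 58.5 to 70.1. The log2 difference of differences was -1.66 (SE 0.67, adjusted p = 0.92). Whether the response to N depended on the parents or the genotype could thus not be shown for any member.

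Pairs of single libraries were also compared by a rule modelled on that of the study, which names a chi-square test as well. The rule used here took the normalized counts, rounded to whole numbers, and called a sequence at a Fisher's exact p under 0.05 with a log2 ratio of counts plus 1 past 1 in either direction. This compares libraries and not conditions. For N against C, the rule called 35 of 85 members in AuCG (22 lower), 18 in AuWH (8 lower), 24 in L6CG (15 lower) and 23 in L6WH (20 lower). That is 41.2, 21.2, 28.2 and 27.1% of the members, against 43.9, 31.4, 35.2 and 32.2% of all 1473 sequences. Called lower were 25.9, 9.41, 17.6 and 23.5% of the members, against 30.8, 17, 21.2 and 21% of all sequences.

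Most of these calls had a 0 on one side: 31 of the 35 in AuCG, 12 of the 18 in AuWH, 19 of the 24 in L6CG and 16 of the 23 in L6WH. Called as lower in all 4 pairs were PC-5p-63848_73, PC-3p-48284_95, PC-5p-17007_236 and PC-3p-52647_87. For PC-5p-63848_73 in AuWH, the call set 5 reads against a 0. PC-5p-94949_48 and PC-5p-95615_48, below the level for the test over libraries, were called lower in 3 of the 4. The share of all sequences called lower in as many pairs was not counted. These calls use the same libraries as the limma test and add no separate evidence.

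For parental stress, the rule called 9 members in Aurora with nutrients, 23 in Aurora without N, 26 in L6 with nutrients and 19 in L6 without N. The shares over all sequences were 21.5, 31.1, 31.2 and 22.7%, and those of the members 10.6, 27.1, 30.6 and 22.4%. In L6 with nutrients, 23 of the 85 members (27.1%) were called higher after parental stress, against 24% of all sequences. Of the 26 calls there, 24 had a 0 on one side, and 1 read was worth less in L6WH_C (0.718) than in L6CG_C (1.08). At a count of 10 or more in 1 of the 2 libraries, 3 were higher and 2 lower. The share of all sequences called at that level was not counted.

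For genotype, the rule called 13 members between AuCG_C and L6CG_C, 33 between AuCG_N and L6CG_N, 35 between AuWH_C and L6WH_C and 13 between AuWH_N and L6WH_N. The members' shares were 15.3, 38.8, 41.2 and 15.3%, and those of all sequences 24.2, 41.1, 40.4 and 15.6%. Between AuWH_C and L6WH_C, 32 of the 85 members (37.6%) were called lower in Aurora, against 31.8% of all sequences, and 31 of the 35 calls had a 0 on one side. There, 5 reads were worth 6.57 in AuWH_C and 3.59 in L6WH_C. A level between these values would be listed in L6WH_C alone, and its part in the calls was not tested.

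The summed level of the members is given without a test. The N libraries summed to 790.3 ± 50.4 and the C libraries to 846 ± 201 (SD, n = 4), a ratio of 0.934, with the 4 pairs between 0.787 and 1.26. The ratio was 0.951 for stressed over control parents (pairs 0.596 to 1.28) and 0.880 for Aurora over L6 (pairs 0.569 to 1.22). In each case the pairs lay on both sides of 1.

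The hairpins show how the class was built. The 85 members lie on 49 predicted hairpins, each with a listed sequence on both arms. In 36 of them both arms are members, and in 13 the other arm has 18 to 22 nt. The 5p arm held 41 members and the 3p arm 44. The precursors were 63 to 216 nt long (median 155), and a median of 91.7% of a member's bases were paired in the predicted fold.

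Among the 36 hairpins with 2 member arms, the arms were not always listed together. In 27 hairpins both arms were listed in at least 1 common library, in 9 they never were, and in 1 both were listed in all 8 libraries. That hairpin is chr5B:8269913-8270100 on the minus strand, within the span of the gene TRITD_5Bv1G003170, and it gave PC-5p-22244_187 and PC-3p-22187_188, at means of 64.7 and 37.5. The more abundant arm held a median of 72.3% of the 2 means, from 50.5 to 98.5%, with values at 0 counted as 0.

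Several abundant members had a partner that was seldom listed, and no fold between the arms is given for these. The partner of PC-3p-4305_800, PC-5p-357336_7, was listed in 3 libraries, at 16.1 in AuCG_C, 6.47 in L6CG_C and 3.25 in L6WH_N. PC-3p-455572_5, the partner of PC-5p-11536_330, was listed in 1 library, at 4.88. PC-3p-342565_8, the partner of PC-5p-17007_236, was listed in 1 library, at 5.75. In these pairs the response of the minor arm could not be measured.

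**Figure D5:**
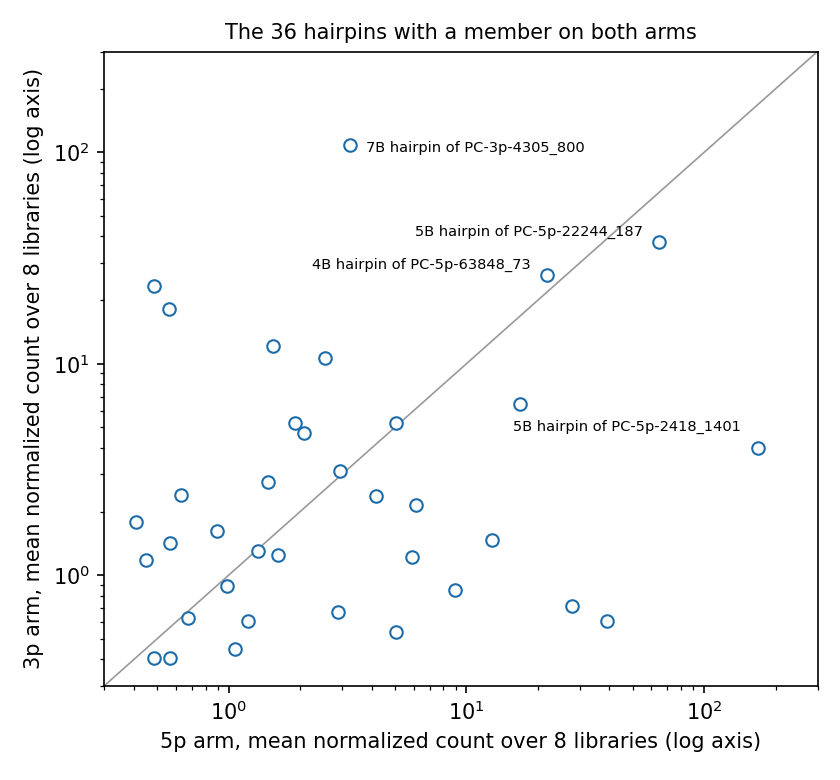
Mean normalized count over 8 libraries of the 5p arm (horizontal axis, log) and of the 3p arm (vertical axis, log) for the 36 hairpins with a member on both arms, with the line of equal level. The 4B hairpin of PC-5p-63848_73 lies near the line at 21.8 and 26.3, while the hairpins of PC-5p-2418_1401 and PC-3p-4305_800 lie far from it; values at 0 count as 0, and the conserved 3p sequence listed for the hairpin of PC-5p-2418_1401 is not plotted.

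The ends of the arms varied. An overhang of 2 nt at both ends was found in 3 of the 36 hairpins and one of 1 to 3 nt at both ends in 8, while 24 had a blunt or recessed 3′ end on at least 1 side. Of the 85 members, 78 match their listed precursor exactly, 6 have 1 mismatch and 1 has more.

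PC-3p-233423_15, the 3p partner of PC-5p-2418_1401, differs from the precursor by T4A (the precursor's base, the position from the member's 5′ end, the member's base). At the same place the table lists the conserved bdi-miR1878-3p_1ss14AG, which had 1223 to 3370 in the C libraries and 819 to 2547 in the N libraries. The member, at a mean of 4.01, is therefore a 1-base variant beside a sequence that is far more abundant.

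The first base was A in 39 members (45.9%), T in 18 (21.2%), G in 14 and C in 14. Among the shorter group 5 sequences, A made up 38.1% and T 45.7%, and among conserved sequences of 23 to 25 nt the shares were 28.7 and 29.3%. These shares are a description and were not tested. The median GC content was 45.8% in the members and in the conserved sequences of that length.

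Members were placed on all 14 chromosomes of the A and B subgenomes, with 29 hairpins on B and 20 on A chromosomes. Chromosome 2B held 10 hairpins, the most of any. Of the 49 hairpins, 10 overlap an annotated gene, and the other 39 lie at a median of 3886 bp from the nearest one. Several of the most abundant members fall in gene spans: PC-5p-2418_1401 at chr5B:373447984-373448169 (minus strand) in TRITD_5Bv1G125650, PC-5p-22244_187 in TRITD_5Bv1G003170, PC-5p-8726_421 at chr2B:233835855-233835932 (minus strand) in TRITD_2Bv1G087980 and PC-5p-11536_330 at chr6B:220349384-220349496 (minus strand) in TRITD_6Bv1G072830. Exons and introns were not examined.

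Of those that fell without N, PC-5p-17007_236 comes from chr2B:30617013-30617171 (plus strand), 10498 bp from a gene. PC-3p-52647_87 lies 473753 bp from one, the farthest of all members. PC-3p-51987_88 comes from chr5A:621533495-621533572 on the minus strand, and PC-3p-4305_800 from chr7B:695669116-695669285 on the plus strand.

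Related sequences occurred at several loci. A run of 14 bases, on either strand, was shared with another member by 38 of the 85, in 18 groups. Both arms of a single hairpin, which pair with each other and so can share a run on opposite strands, account for 12 of the pairs. The other 10 pairs lie on different hairpins, and 16 members share a run with a member of another hairpin. One such group has 3 members on chromosomes 4B, 6A and 7A, shown with the run they share with the first in capitals.
PC-3p-218514_17: ATGCCACGTGTCATCCATcagggc
PC-3p-352595_7: ttgcgaATGCCACGTGTCATCCAT
PC-3p-246607_14: aaATGCCACGTGTCATCtatcaga

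These 3 were rare, at means of 2.16, 0.853 and 1.34. The members with a common seed form another group and are shown with the 17 bases they share in capitals.
PC-5p-331710_8: ATCACAAAGCATCTACCctatccc
PC-5p-430383_6: ATCACAAAGCATCTACCtcacccc

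PC-5p-331710_8 had a mean of 1.33 and PC-5p-430383_6 one of 0.487. Their opposite arms, PC-3p-266533_12 on 6A and PC-3p-32381_135 on 7B, share a run of 13 bases, and the second is the member whose CG values lay above its WH values. Whether a read of such a sequence matches more than 1 place, which would leave its locus and its count uncertain, was not tested.

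A run of 14 bases with conserved entries was found in 13 members. The conserved names were miR1123, miR1131, miR1137, miR1878, miR5049, miR6191, miR9774, miR9776 and miR9783. PC-3p-62791_74, with a mean of 10.6, shares one with an entry of miR9783, and PC-5p-65122_71, with a mean of 8.96, with one of miR1123. In all, 9 members share a run with a group 5 sequence of 18 to 22 nt, among them PC-5p-8726_421, whose opposite arm PC-3p-61451_75 has 21 nt and shares the run on the opposite strand.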

How the data were processed

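Small RNA was sequenced as 50-nt single reads from 8 libraries, each a pool of 6 plants. The deposited signal values are normalized read counts that the authors made with ACGT101-miR, after matching to miRBase and Svevo.v1 and folding unmatched sequences with RNAfold; the scaling factors are not given in the sources used here. Per the labels the sequencer was a NovaSeq, and per the methods a HiSeq.

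Entries were reduced to 1473 distinct sequences. The step between low values gave the worth of a single read, and by it the table holds 975067 (AuWH_C) to 2305747 (L6WH_N) reads per library. Additive models of progeny treatment, parental treatment and genotype were fitted with limma 3.58.1 in R 4.3.3 to log2(normalized count + 1) of the 605 sequences with a mean of 10 or more, which include 16 members, with Benjamini-Hochberg adjustment over all 605 and a threshold of 0.05. Each interaction was added in turn. The added 1 shrinks log2 differences at low counts, while a 0 that stands for fewer than 5 reads can enlarge them. With 5 added instead, the N difference was -2.06 for PC-5p-63848_73, -2.22 for PC-3p-48284_95, -2.27 for PC-5p-17007_236 and -2.02 for PC-3p-52647_87. The p-values measure the spread between single libraries. The additive model and the pair rule were also run on simulated data that lacked the floor of 5 reads. Those for the pair rule lacked differences between plants as well. The runs therefore do not test these limits.

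Hairpins were folded with RNAfold 2.7.2. Chromosome names were assigned from the order of the deposited sequence numbers and checked against gene positions of Svevo.v1. Named are members that passed a test, the 3 largest rises and falls per factor, the 6 most abundant, hairpins with 2 member arms and examples of shared words; others are stated as chosen after their values were seen. The members, the lists and the tests were chosen with earlier results of these data known. Alternatives were other pseudocounts, filters, scalings, a block for matched pairs and leaving out each library.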

Additional observations from a re-analysis of the deposited data

How the results depend on the processing

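The 4 calls for N starvation stayed within 3 to 5 under every alternative run, and no alternative turned the direction of any of the 4. With matched pairs as a replicate block the count was 4, and the block changed no other call; the labels carry no replicate numbers, so that pairs come from the design alone. Leaving out each library in turn gave 3 to 5 calls for N starvation, 0 for parental stress, 0 to 1 for genotype (1 without AuCG_C, PC-5p-63848_73) and 0 for each interaction. PC-5p-17007_236 lost its call without AuCG_C, AuWH_N, L6CG_C or L6WH_C. PC-3p-51987_88 passed with a pseudocount of 5 (1.12), with quantile normalization (1.69) and without AuCG_N (1.76); over its 17 alternatives the adjusted p ran from 0.029 to 0.21. Equal totals moved the median N difference of all sequences from -0.06 to -0.24 and that of the members from 0.19 to -0.00, and quantile normalization moved them to 0.08 and 0.38.

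Directions that turned concern differences that were not called. For parental stress, leaving out 1 library gave -0.042 to 1.21 for PC-3p-48284_95 (turned without AuCG_N), -0.44 to 1.08 for PC-5p-17007_236 (turned without L6CG_N, and at -0.037 without L6WH_N) and -1.65 to 0.16 for PC-5p-50718_91 (turned without AuWH_C). For genotype it gave -0.20 to 1.32 for PC-5p-17007_236 (turned without L6CG_N) and -1.38 to 0.43 for PC-5p-50718_91 (turned without AuWH_C). The cause was not tested.

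Counts from pairs of libraries depended most on low values. Requiring 10 or more in 1 of the 2 libraries left, for N against C, 12 members in AuCG, 8 in AuWH, 8 in L6CG and 9 in L6WH. For parental stress it left 6 in Aurora with nutrients, 5 in Aurora without N, 5 in L6 with nutrients and 3 in L6 without N. For genotype it left 4, 11, 9 and 3, in the order CG_C, CG_N, WH_C, WH_N. The chi-square test raised AuWH_C against AuCG_C to 18, AuCG_C against L6CG_C to 23 and AuWH_N against L6WH_N to 21. Equal totals raised the first to 18 and the second to 22. The shares of all sequences called under these settings were not counted, so the members cannot be set beside them. Counting values of 8 or more, 34 members were listed in Aurora in place of 52 and 30 in L6 in place of 73. edgeR and DESeq2 were planned on reads recovered from the values and were not run, because the steps did not give whole reads for enough of the table. Single libraries, low reads and the 69 members under a mean of 10 limit what can be detected.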
